A study of Rattus norvegicus with 6 samples.

Results

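Immediate early genes are switched on within minutes of a stimulus without new protein synthesis, and 10 of them were followed in rat lung: Fos, Fosb, Jun, Junb, Atf3, Egr1, Egr3, Nr4a1, Ier2 and Dusp1. They were taken by gene name from the deposited table of assembled transcripts, in which 21655 gene names occurred, and the FPKM (fragments per kilobase of transcript, scaled to the size of the library) of all rows of a name were summed in each library. The rule itself uses names and no measured value, but the set was proposed with earlier results of these data known. All 10 names were found, and all 10 had FPKM above 0 in at least 3 of the 6 libraries, the condition for being tested, which 19645 names met.

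The libraries came from whole lung tissue of Sprague Dawley rats, 7 weeks old at the start, with 1 library per rat and 3 rats per group. Model rats had received a single intratracheal instillation of bleomycin at 7 mg/kg, which injures the alveolar epithelium and is followed by fibrosis, and Control rats had received saline. Lungs were taken on day 28, and total RNA depleted of ribosomal RNA was sequenced. The comparison therefore asked how these genes stood in the fibrotic phase of the model, and whether rats of 1 group resembled each other in them.

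The products of these genes form a short-lived first layer of a transcriptional response. Growth factors, stretch, cytokines and tissue handling act through mitogen-activated protein kinases and cAMP signalling on factors already present in the cell, such as serum response factor with its ELK partners and CREB, and these switch on the immediate early promoters. Fos and Jun proteins pair to form AP-1, which binds the promoters of many later genes, including genes of inflammation and matrix turnover in the lung. The transcripts are degraded quickly, and levels can therefore follow stimuli that came shortly before the tissue was preserved.

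The libraries were of similar scale. Their FPKM summed to 510208 to 597647 over all rows, and the median log2 value of the expressed genes lay within -0.04 to 0.03 of the mean of the 6 libraries. Markers of alveolar type 2 cells (Sftpc, Sftpb and Sftpa1) summed to 4115 to 5736 FPKM in Control and 4836 to 6404 FPKM in Model, as lung tissue should show. Markers of fibroblasts (Col1a1, Col1a2, Col3a1 and Dcn) summed to 260 to 284 FPKM in Control and 290 to 380 FPKM in Model. The largest part was Col3a1, at 154 to 178 FPKM in Control and 189 to 233 FPKM in Model. Col1a1 and Col1a2 overlapped between the groups, and Dcn had a lower mean in Model, 12.6 against 14.0 FPKM. The lowest limma adjusted p among these markers was 0.933. The third Model library stood apart in markers of cardiac muscle (Myh6, Myl7, Tnnt2 and Actn2), with a sum of 12.3 FPKM against 0.553 to 0.907 FPKM in the other 5, and Myh6 was listed at 0 in all Control libraries. Results are given with and without this library where it matters. In whole tissue, fewer cells of a type and less RNA per cell cannot be told apart.

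Promoters of 6 of the 10 genes were in the RefSeq table of the GRCr8 build, as windows of 250 bases before to 50 bases after the start: Dusp1, Egr1, Fosb, Ier2, Junb and Nr4a1. The cAMP response element TGACGTCA, the binding sequence of CREB and ATF proteins, was found on either strand in the windows of Dusp1 and Ier2, against 1.83% of all 33469 windows. Its shorter parts TGACG and CGTCA, of which the full element is one case, were found in 5 of the 6 windows, all but that of Fosb, against 21.2% of all windows. The core of the serum response element was found in the window of Egr1 alone, at 2 places, the first from base -105 to -96 and the second from base -83 to -74, against 1.64% of all windows. The AP-1 site TGANTCA was in none of the 6 windows and in 7.33% of all. The 150 bases before the start are shown for the genes with full cAMP elements, and for Nr4a1, whose window holds the shorter motif at 4 places, 2 of them in the bases shown. Capitals mark the matches, and a match describes the letters in the window and not a bound site.

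Ier2 (chr19:40399223-40399372, + strand): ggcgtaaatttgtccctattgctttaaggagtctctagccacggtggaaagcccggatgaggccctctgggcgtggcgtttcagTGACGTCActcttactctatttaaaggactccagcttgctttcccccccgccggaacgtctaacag
Dusp1 (chr10:17184703-17184852, + strand): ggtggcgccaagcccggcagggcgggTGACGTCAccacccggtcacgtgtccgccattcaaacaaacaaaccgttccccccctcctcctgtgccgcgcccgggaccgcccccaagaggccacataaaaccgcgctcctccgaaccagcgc
Nr4a1 (chr7:134259988-134260137, + strand): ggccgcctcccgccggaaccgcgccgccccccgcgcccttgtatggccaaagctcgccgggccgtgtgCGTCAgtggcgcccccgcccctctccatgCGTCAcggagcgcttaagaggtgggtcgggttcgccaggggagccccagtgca

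Among the AP-1 genes, Fos and Jun, summed over all rows, were almost equal between the 3 Control lungs and unequal between the 3 Model lungs. Values are given in FPKM and in the order of the replicate numbers, which carry no other order. Fos, the partner that pairs with Jun proteins, was at 35.2, 35.5 and 34.6 FPKM in Control and at 40.4, 27.8 and 15.7 FPKM in Model. The Control lungs thus lay within 1.03-fold of each other, the Model lungs spanned 2.58-fold, and the first Model lung was above and the other two below every Control lung. In its annotated row alone Fos was at 6.40, 10.96 and 6.73 FPKM in Control and at 10.05, 8.26 and 3.19 FPKM in Model. The near equality of Fos in Control was therefore a trait of the sum over rows. Jun was at 88.6, 86.7 and 90.2 FPKM in Control and at 86.5, 85.4 and 62.9 FPKM in Model. Each Model lung was below each Control lung in Jun, but the nearest pair stood at 86.5 and 86.7 FPKM, and only the third Model lung was clearly apart. The difference of Model minus Control in log2(FPKM + 1) was -0.41 for Fos (SE 0.31, limma adjusted p = 0.933, exact permutation p = 0.4) and -0.19 for Jun (SE 0.13, limma adjusted p = 0.933, exact permutation p = 0.1). Without the third Model library the differences were -0.06 for Fos and -0.04 for Jun (limma adjusted p = 0.990 and 0.987).

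Junb, an AP-1 partner that often restrains Jun, shared this pattern. Its Control lungs were at 48.0, 47.8 and 49.3 FPKM and its Model lungs at 57.9, 55.2 and 37.0 FPKM, so that 2 Model lungs were above all Control lungs and the third was below them. The means were 48.4 ± 0.803 FPKM in Control and 50.02 ± 11.3 FPKM in Model (SD, n = 3 each), and the log2 difference was 0.02 (SE 0.17, limma adjusted p = 0.996, exact permutation p = 1). Without the third Model library the difference was 0.22 (SE 0.07, limma adjusted p = 0.981).

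Fosb, a Fos relative with a slower-decaying splice form, had the largest of the 10 differences on the scale of log2(FPKM + 1) when all rows were summed, and with annotated rows only the difference was 0.26, of opposite sign. It was at 8.64, 7.68 and 4.55 FPKM in Control and at 5.07, 4.47 and 2.38 FPKM in Model. The groups overlapped, since the first Model lung was above the third Control lung, and here the Control lungs also varied, by 1.90-fold. The log2 difference was -0.68 with a 95% interval of -1.40 to 0.03 (limma adjusted p = 0.933, exact permutation p = 0.2). Atf3, a stress-induced CREB and ATF family repressor, was at 41.4, 38.7 and 30.2 FPKM in Control and at 30.8, 33.2 and 15.2 FPKM in Model. Again the groups overlapped by 1 Control lung, and the log2 difference was -0.52 (SE 0.30, limma adjusted p = 0.933, exact permutation p = 0.3). Without the third Model library the differences were -0.43 for Fosb and -0.18 for Atf3 (limma adjusted p = 0.981 for both).

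**Figure D1:**
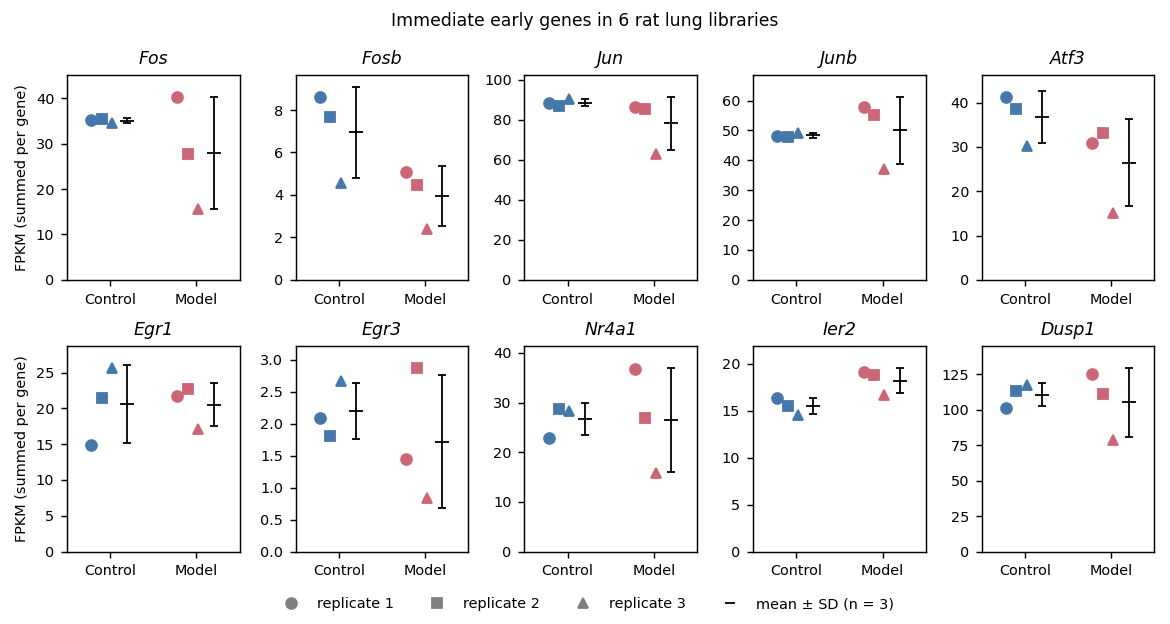
Level of each of the 10 genes in each library, as summed FPKM on a linear axis from 0 set for each gene, with 1 point per rat (shape gives the replicate number) and the mean ± SD of each group (n = 3). Fos, Jun and Junb lie close together in Control, and the third Model rat is the lowest point for 8 of the 10 genes.

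Of the zinc finger factors, Egr1 showed more spread in Control than in Model when all rows were summed. Egr1, a sensor of growth factor and mechanical signals, was at 14.8, 21.5 and 25.6 FPKM in Control and at 21.8, 22.7 and 17.1 FPKM in Model. All Model lungs lay inside the Control range, and the means of 20.6 ± 5.45 and 20.5 ± 3.01 FPKM (SD, n = 3 each) gave a log2 difference of 0.01 (SE 0.21, limma adjusted p = 0.999, exact permutation p = 1). Its relative Egr3 had the lowest level of the 10, at 2.10, 1.81 and 2.68 FPKM in Control and at 1.45, 2.87 and 0.837 FPKM in Model. The Model lungs held both the highest and the lowest value of Egr3, a span of 3.43-fold, and the log2 difference was -0.29 (SE 0.28, limma adjusted p = 0.934, exact permutation p = 0.5). It was -0.045 without the third Model library and -0.58 without the second (limma adjusted p = 0.998 and 0.820). For Egr1 the difference without the third Model library was 0.13 (limma adjusted p = 0.987). About 98.1 to 324 reads per library stood behind Egr3, estimated from the deposited coverage, against medians of 1672 to 13175 reads for the other 9 genes, so that Egr3 was the least precisely counted.

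Nr4a1, an orphan nuclear receptor, was at 22.9, 28.7 and 28.3 FPKM in Control and at 36.7, 26.9 and 15.9 FPKM in Model. The first Model lung was the highest and the third the lowest of all 6, while the means were 26.6 ± 3.26 and 26.5 ± 10.4 FPKM (SD, n = 3 each). The log2 difference was -0.08 (SE 0.28, limma adjusted p = 0.991, exact permutation p = 1), and it was 0.24 without the third Model library (adjusted p = 0.981). Dusp1, the phosphatase that switches off the kinases that induce these genes, had the highest level when all rows of a name were summed, at 101.3, 112.8 and 117.1 FPKM in Control and at 125.4, 111.3 and 78.5 FPKM in Model. As for Nr4a1, the first Model lung was the highest and the third the lowest, with a log2 difference of -0.10 (SE 0.18, limma adjusted p = 0.967, exact permutation p = 0.8) that was 0.10 without the third library (adjusted p = 0.981).

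Ier2, a small nuclear protein of the early serum response, was the exception among the 10. It was at 16.4, 15.6 and 14.6 FPKM in Control and at 19.2, 18.8 and 16.7 FPKM in Model, so that every Model lung was above every Control lung, the nearest pair being 16.7 and 16.4 FPKM. The log2 difference was 0.22 (SE 0.09, 95% interval 0.0053 to 0.43, limma adjusted p = 0.933, exact permutation p = 0.1). Without the third Model library it was 0.28 (limma adjusted p = 0.981). Ier2 was then one of 2 genes of the 10 with an unadjusted limma p of at most 0.05, the other being Junb, against 855 of all 19645 genes.

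The order of levels in the Control lungs, in FPKM summed over all assembled rows, ran from Dusp1 with a mean of 110 FPKM through Jun, Junb, Atf3, Fos, Nr4a1, Egr1, Ier2 and Fosb to Egr3 with a mean of 2.20 FPKM. Neighbours whose 3 Control values overlapped were Atf3 and Fos, Nr4a1 and Egr1, and Egr1 and Ier2. The other neighbours in this order did not overlap. The order depended on which rows were counted. With annotated rows alone Jun was highest at a Control mean of 86.8 FPKM, followed by Junb at 48.4 FPKM and Dusp1 at 28.05 FPKM, and Fosb, at 0 to 0.849 FPKM, was below Egr3, at 1.81 to 2.68 FPKM. Ier2 has no annotated row.

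None of the 10 genes passed the study's thresholds of p at most 0.05 with a log2 ratio of mean FPKM of at least 1 in either direction, and none had an adjusted p below 0.05 in limma. Over all 19645 genes the first rule called 298 genes, or 1.52%, of which 130 were higher and 168 lower in Model, and the second called 2 genes, or 0.0102%. At an unadjusted p of at most 0.05 in limma, 1 of the 10 passed, Ier2, against 4.91% of all genes. Libraries of the groups did not overlap for 2 of the 10, Jun and Ier2, against 10.7% of all genes. Of the 10 differences 7 were negative and 3 positive, with a median of -0.14 in log2(FPKM + 1) against -0.0072 over all genes, and without the third Model library the median of the 10 was 0.029.

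The exact permutation test, which with 3 rats against 3 cannot go below 0.1, gave a two-sided p of 0.1 for Jun and Ier2, and of 0.2 or more for the other 8. The intervals show what 3 rats per group could resolve. For Ier2 the 95% interval in log2(FPKM + 1) excluded a change by 1 in either direction, as it did for Jun (-0.51 to 0.13), Junb (-0.38 to 0.43), Egr1 (-0.49 to 0.52), Nr4a1 (-0.76 to 0.61) and Dusp1 (-0.52 to 0.33). It did so for Egr3 as well (-0.97 to 0.38), whose low FPKM make this scale understate a change. For Fos (-1.15 to 0.32), Fosb (-1.40 to 0.03) and Atf3 (-1.24 to 0.19) it did not exclude a lower level in Model of that size.

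**Figure D2:**
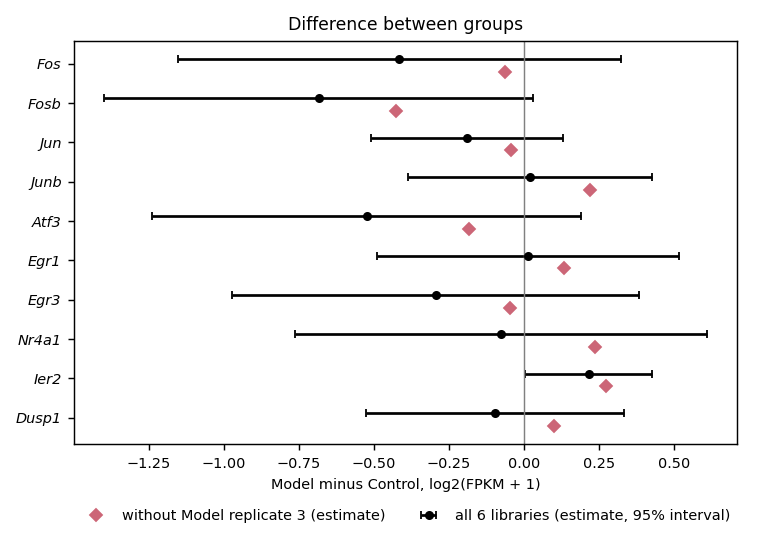
Difference of Model minus Control in log2(FPKM + 1) for each of the 10 genes, as circles with 95% intervals from all 6 libraries and as diamonds, without intervals, when the third Model library was left out. With all libraries 7 of the 10 differences are negative, and only the interval of Ier2 leaves out 0.

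Differences between rats of the same group were larger in these genes than in most. The standard deviation within a group, pooled over both groups in log2(FPKM + 1), had a median of 0.36 over the 10 genes and 0.17 over the 14312 tested genes with a mean of at least 1 FPKM. The value was above that median for 9 of the 10, Ier2 being the exception at 0.09, and above the 90th percentile of 0.406 for 5 of them, namely Fos (0.47), Atf3 (0.45), Fosb (0.44), Nr4a1 (0.43) and Egr3 (0.408). The share of the variation that lay between the groups was 67.7% for Ier2, 47.8% for Fosb, 33.5% for Atf3, 28.7% for Jun and 22.7% for Fos. It was 16.2% for Egr3, 4.87% for Dusp1, 1.14% for Nr4a1, 0.291% for Junb and 0.0741% for Egr1. The median of the 10 was 19.5%, against 13.4% over all genes tested.

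The spread lay mainly in the Model group. Within Control the median standard deviation of the 10 was 0.14, close to the 0.13 of all genes tested, and within Model it was 0.40 against 0.15. The Model value was above the Control value for 9 of the 10 genes, all but Egr1, against 53.5% of all genes. Fos had 0.66 in Model and 0.02 in Control, Junb had 0.35 and 0.02, and Jun had 0.26 and 0.03. These values are for FPKM summed over all rows. With annotated rows alone Fos ranged from 6.40 to 10.96 FPKM in Control. Egr1 then ranged more widely in Model, from 3.12 to 9.70 FPKM, than in Control, from 4.36 to 7.69 FPKM. A standard deviation from 3 rats is itself imprecise, and the difference in spread between the groups was not tested.

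**Figure D3:**
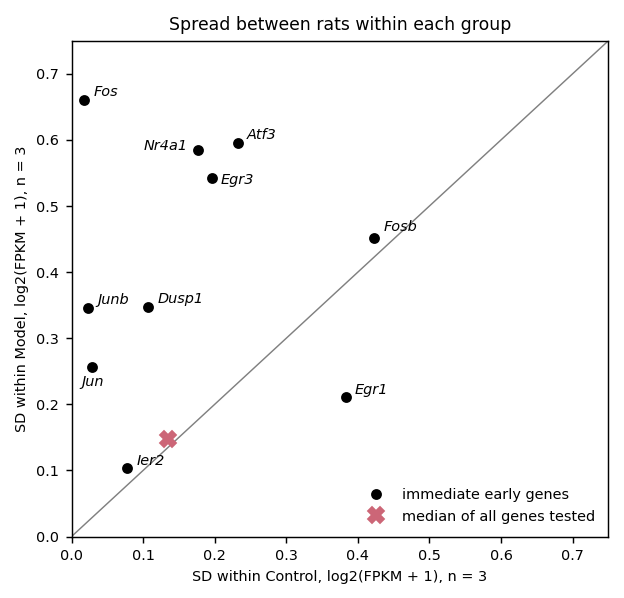
Standard deviation of log2(FPKM + 1) between the 3 Control rats on the x axis and between the 3 Model rats on the y axis for each of the 10 genes, with the median of all tested genes as a cross and the line of equal spread. With FPKM summed over all rows, all genes but Egr1 lie above the line, Fos farthest at 0.66 against 0.02.

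One rat carried most of this spread. The third Model library, singled out after its values were seen, was the lowest of the 6 for 8 of the 10 genes, against 21.5% of the genes with a mean of at least 1 FPKM. The exceptions were Egr1, lowest in the first Control library, and Ier2, lowest in the third. Relative to the mean of the other 2 Model rats, the level in this rat was 0.387-fold for Egr3, 0.46-fold for Fos, 0.474-fold for Atf3, 0.499-fold for Fosb and 0.500-fold for Nr4a1. For Junb, Dusp1, Jun and Egr1 it was 0.656-fold, 0.663-fold, 0.73-fold and 0.768-fold, and for Ier2 it was 0.879-fold. Its median distance from the median of the other 5 libraries was -0.64 in log2(FPKM + 1) over the 10 genes and 0.03 over all genes, and 6 of the 10 were lower by at least 0.5, against 7.07% of genes.

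Without the third Model library, the median standard deviation of the 10 genes was 0.20, against 0.14 for all genes. The other rats showed no such common position. The mean deviation of the 10 genes from their 6-library means was 0.08, 0.13 and 0.09 in the Control rats, 0.15 and 0.09 in the first and second Model rats, and -0.55 in the third. The first Model rat held the highest value of 5 of the 10 genes. Over the 45 pairs of these genes the median Pearson's r across the 6 libraries was 0.62, and 38 pairs were positive. Across the 5 libraries without the third Model rat the median was -0.10, and 18 pairs were positive. These correlations describe libraries of which 1 lies far from the rest, and no p is given.

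In the same library the fibroblast marker sum was at its highest, 380 FPKM against at most 320 FPKM in the other 5, as were the smooth muscle markers (Acta2, Myh11 and Tagln) at 133 FPKM against 77.1 to 103 FPKM, besides the cardiac markers. The endothelial marker Cdh5, at 73.3 FPKM, was inside the range of the others, and Pecam1 and Cldn5 were not listed. Markers of macrophages (36.2 FPKM), neutrophils (11.9 FPKM) and T cells (11.1 FPKM) were also inside the range of the other libraries, while B cell markers were at 10.3 FPKM against at most 9.89 FPKM. The macrophage range was set by Cd68, at 21.0, 20.7 and 1.30 FPKM in Control and at 22.2, 1.21 and 22.8 FPKM in Model. The other macrophage marker found was Mrc1, at 13.4 FPKM in this library, and Marco was not listed. Alveolar type 1 markers (512 FPKM), club cell markers (6365 FPKM) and erythroid markers (2323 FPKM) were inside the range too, and alveolar type 2 markers, at 6404 FPKM, were above the 5736 FPKM reached elsewhere. The part of these marker levels in the low values of this rat was not tested.

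Related genes were read in the same fit. None of the 11 other AP-1 and ATF genes, of the 32 tested other primary response genes, of the 17 upstream kinases and factors or of the 9 heat shock genes passed the study's thresholds, against 1.52% of all genes. At an unadjusted p of at most 0.05 in limma, 3 of the 11, 5 of the 32, 0 of the 17 and 0 of the 9 passed, against 4.91%, and none had an adjusted p below 0.05. Median differences were -0.13, -0.09, 0.04 and -0.07 in log2(FPKM + 1).

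The third Model library was lowest for 6 of the 10 other AP-1 and ATF genes with a mean of at least 1 FPKM and for 18 of the 29 other primary response genes. It was lowest for 3 of the 16 upstream kinases and factors and for 3 of the 9 heat shock genes, beside the 21.5% of all genes. The median deviation in this library was -0.54 for the 10 genes, -0.36 for the other primary response genes, -0.18 for the other AP-1 and ATF genes, -0.15 for the heat shock genes and -0.04 for the upstream genes. By these medians the inducible transcripts were low in this rat and the kinases and factors that act on them were near their means, and the differences between lists were not tested.

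The genes with the largest spread within groups were read one by one, since medians hide single genes. Ier3, an early response gene linked to survival, was at 18.3, 22.9 and 23.2 FPKM in Control and at 22.8, 27.9 and 9.47 FPKM in Model. Klf10, an early target of TGF-beta signalling, was at 15.9, 19.5 and 22.5 FPKM in Control and at 26.0, 27.9 and 10.7 FPKM in Model. Nr4a3, a relative of Nr4a1, was at 3.03, 2.37 and 5.38 FPKM in Control and at 4.41, 2.97 and 1.38 FPKM in Model. In Ier3, Klf10 and Nr4a3 the third Model rat was the lowest and no group difference passed the test. Of the other AP-1 and ATF genes Fosl1, Atf4 and Jdp2 varied most, with pooled standard deviations of 0.30, 0.23 and 0.18, and of the upstream genes Map2k1, Elk4 and Srf did, with 0.51, 0.24 and 0.23. Map2k1, the kinase MEK1, was at 8.35, 3.41 and 4.32 FPKM in Control and at 7.93, 7.62 and 4.10 FPKM in Model, so that this upstream gene was also low in the third Model rat relative to the other Model rats, with its lowest value in the second Control rat. Jdp2, a repressor of AP-1, was at 9.57, 8.69 and 6.69 FPKM in Control and at 10.96, 9.84 and 11.5 FPKM in Model, with its highest value in the third Model rat.

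Heat shock genes, which also respond within minutes but to unfolded protein, varied as much, and as a list they did not share this order. Hspa1a, the inducible HSP70, was at 85.9, 22.6 and 32.6 FPKM in Control and at 31.9, 56.5 and 41.3 FPKM in Model. The first Control library held the highest value of 6 of the 9 heat shock genes, and the second the lowest of 5. Single heat shock genes were nevertheless low in the third Model rat. Hsp90aa1 was at 4.58 FPKM there, against 8.26 to 13.2 FPKM in the other libraries, and Hspb1 was also lowest there, at 60.2 FPKM. Hsph1 was at 9.56 FPKM there, above only the 8.24 FPKM of the second Control rat. Hspa8 and Hspe1, in contrast, were highest in the third Model rat. Hspa1a, Hsph1 and Dnajb1 had the largest standard deviations within groups, 0.74, 0.61 and 0.47.

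**Figure D4:**
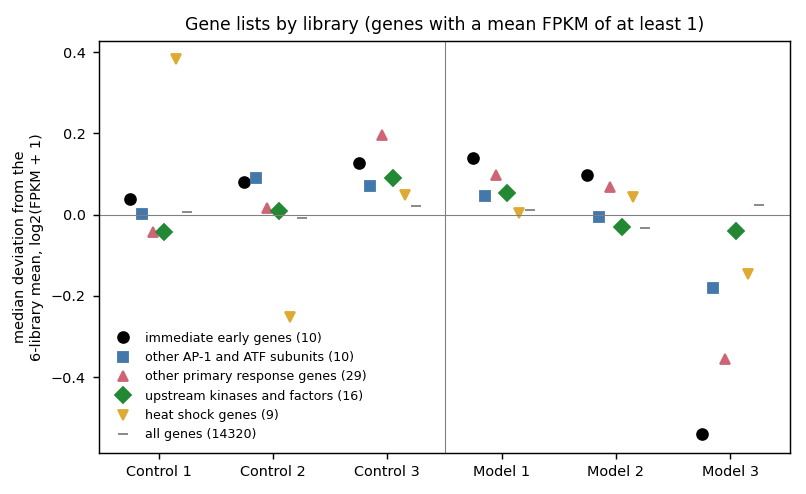
Median deviation from the 6-library mean in log2(FPKM + 1), by library, for the 10 immediate early genes and for the related lists, over genes with a mean of at least 1 FPKM. In the third Model library the 10 genes are at -0.54 and the other primary response genes at -0.36, while the upstream genes are at -0.04, and the heat shock genes are highest in the first Control library.

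Outside the lists, the genes whose profile over the 6 libraries was most like the mean profile of the 10 were sought among 8717 genes with a mean of at least 5 FPKM. They were Mecom (Pearson's r 0.998), Neb (0.997), LOC103690018 (0.994), LOC100911713 (0.994), RF00592 (0.993), AABR07028568.1 (0.993), Phf20l1 (0.992), AABR07026893.1 (0.992), Ppp1r15a (0.991) and Kifc2 (0.981). The measure is dominated by the third Model library, and over the other 5 libraries r was 0.76 for Mecom, 0.58 for Neb, 0.77 for Ppp1r15a and 0.29 for Kifc2. It was 0.59 for LOC103690018, 0.52 for RF00592, 0.79 for AABR07028568.1 and 0.51 for Phf20l1. The lowest was 0.098 for LOC100911713, and the highest was 0.988 for AABR07026893.1, which kept its likeness without that library. Ppp1r15a, also called GADD34 and a regulator of translation under stress, was at 28.01, 29.96 and 26.74 FPKM in Control and at 31.97, 30.18 and 13.15 FPKM in Model. The names describe likeness in these libraries only.

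The summed FPKM rested largely on assembled rows that match no annotated transcript. Rows matching an annotated transcript carried 100% of the FPKM of Junb and Egr3 and 97.5% of that of Jun, but 39.1% of Nr4a1, 30.9% of Egr1, 25.6% of Dusp1, 24.1% of Fos, 12.6% of Atf3 and 7.60% of Fosb. The median of the 10 was 28.3%, against 53.3% over genes with a mean of at least 1 FPKM. Ier2 had a single row, an unspliced stretch of 5135 bases, and none that matched an annotated transcript, so its level and its difference rest on that row. Rows with fewer exons than the annotated form carried 75.9% of the FPKM of Fos, 92.4% of Fosb, 87.4% of Atf3, 69.1% of Egr1, 74.4% of Dusp1 and 60.9% of Nr4a1. For 7 genes with several annotated exons the median was 74.4%, against 29.2% over 12543 such genes. Rows of Atf3 with 8264 and 9229 bases reached to position 109779621, beyond the annotated rows, which reach to 109817728. They held 11.9 and 5.40 of 41.4 FPKM in the first Control library, and 4.70 and 2.62 of 15.2 FPKM in the third Model library.

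Rows with fewer exons can hold intron sequence or leave out an exon. The unspliced row of Egr1 had the annotated ends and 3802 bases, against 3130 in the annotated row. Rows with the annotated ends had 2462 and 2754 bases against 1589 for Fos, and 2569 and 2533 against 1936 for Dusp1. For Nr4a1 such rows had 3577 to 6350 bases against 2484. These longer rows of Egr1, Fos, Dusp1 and Nr4a1 thus held intron sequence. Whether rows also left out an exon was not tested. With annotated rows alone, the difference was 0.26 for Fosb (limma adjusted p = 0.975), 0.20 for Nr4a1 (adjusted p = 0.979) and -0.026 for Egr1 (adjusted p = 0.99999), each opposite in sign to that from all rows. The third Model library was still the lowest for 8 of the 9 genes that have annotated rows, against 16.0% of all genes, the exception being Fosb.

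In the coordinates of the table, whose build is not given in the sources used here, the rows of Fos lay at chr6:109300433-109307582 on the plus strand, those of Fosb at chr1:80213184-80221809 on the minus strand, and those of Jun at chr5:114009389-114014277 on the minus strand. Junb lay at chr19:26092974-26094756 and Ier2 at chr19:25771051-25776185, both on the minus strand, Atf3 at chr13:109779621-109849632 on the minus strand, and Egr3 at chr15:51756736-51760722 on the plus strand. Egr1 lay at chr18:27657628-27661429, Nr4a1 at chr7:142905115-142920216 and Dusp1 at chr10:16970626-16983238, all on the plus strand.

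Circular RNAs, measured in the same libraries by reads that cross a back-splice, held none of the 10 genes as host among 5216 circRNAs from 2881 host genes. Among the other primary response genes only Btg2 appeared, with 1 read in all. The libraries held 2037 to 2964 back-splice reads each.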

How the data were processed

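RNA from 6 rat lungs (3 Control, 3 Model, as the titles of the samples give them) was sequenced in paired reads of 150 bases. The authors used Cutadapt for trimming and Bowtie2 and TopHat2 for mapping (the submitters' processing notes list HISAT2, StringTie and TopHat) and assembled transcripts with StringTie. They estimated transcript levels with StringTie and Ballgown and deposited FPKM and mean coverage (signal) per transcript. Back-splice counts and a signal scaled to library size were deposited for circRNAs, called by the authors with TopHat-Fusion and CIRCexplorer. The genome build is not given in the sources used here.

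FPKM of all rows with a gene name were summed. Of 70376 rows, 59882 had a name. Genes above 0 in at least 3 libraries were tested with limma 3.58.1 (R 4.3.3, trend) on log2(FPKM + 1), and p was adjusted by Benjamini-Hochberg. This scale understates changes of low genes. A gene was called when its p was no more than 0.05 and its group mean FPKM differed by a log2 ratio of 1 or more. Exact permutation tests over 20 regroupings were two-sided. Total reads per library were not used. To estimate the reads of a gene, coverage was multiplied by transcript length and divided by 150 bases. The limma p sets the group difference against the spread between these rats within groups. That spread is taken as equal in both groups and is drawn towards that of genes of similar level. The fit was tested on simulated data with the same spread in both groups, which differs from genes such as Fos (0.02 in Control and 0.66 in Model). It called 87% of genes changed by 1 in log2 and 1.54% of unchanged genes, beside the 1.52% called in the real data.

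The members and lists were chosen with earlier results of these data known. Named were the 10 members, genes of other lists that were called or had the 3 largest spreads, and the 10 genes of most similar profile. Combination of transcripts, pseudocount, filter, scaling, variance model, replicate block and single libraries were varied. Columns of values assigned to no sample numbered 0.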

Additional observations from a re-analysis of the deposited data

How the results depend on the processing

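The count of calls over all genes, 298, became 519 with annotated transcripts only and 84 with a mean FPKM of at least 1, and without single libraries it ranged from 321 to 411. Calls among the 10 genes were 0 with all libraries and ranged from 0 to 1 without single libraries. That call was Fosb, at -0.92 without the third Control library (limma adjusted p = 0.9999) and at -0.85 without the first Model library (adjusted p = 0.922). Calls in the related lists were 0, became 1 with annotated transcripts only (Gadd45g) and ranged from 0 to 1 without single libraries, the call being Gem without the first Control, the first Model or the second Model library.

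Directions that changed were those of Fosb (0.26), Egr1 (-0.026) and Nr4a1 (0.20) with annotated transcripts only, of Nr4a1 (0.0044) with FPKM rescaled to TPM, which moved the median of all genes to 0.05, and of Junb (-0.016) under quantile normalization. Without single libraries the difference ranged from -0.20 to 0.18 for Egr1, from -0.095 to 0.22 for Junb, from -0.34 to 0.24 for Nr4a1 and from -0.24 to 0.10 for Dusp1, and the cause was not tested. The differences of Fos, Jun, Atf3 and Egr3 stayed negative and that of Ier2 positive under every alternative run. For the members, 165 of the single-gene values kept their direction and side of the threshold, 12 changed direction and 2 passed it.

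The labels name no pairing of rats by replicate number. Deviations of same-numbered libraries correlated at 0.07, 0.03 and -0.09 across genes, which cannot exclude a shared batch. With the replicate block 312 of all genes and 0 of the 10 were called. The unadjusted limma p was then 0.0026 for Fosb and 0.029 for Atf3, against 0.058 and 0.13 without the block. The limma adjusted p with the block was 0.924 for both. Depth was judged from reads per gene and not from total reads per library, and 3 rats per group limit all comparisons.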
